A study of Oryza sativa with 4 samples.

Results

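The genes described here move mineral ions across the membranes of rice cells, or make the chelator with which metals travel. They were taken by name from the RefSeq gene table: the potassium carriers HAK, the sodium and potassium carriers HKT, the potassium channel AKT1, the phosphate carriers PHT1, the metal carriers NRAMP, ZIP, IRT and YSL, the nicotianamine synthases NAS1 to NAS3, and the metal and calcium exchangers MTP and CAX. Most of these names stand in that table as synonyms of a locus number, so symbols and synonyms were both searched, without regard to case. This gave 94 genes, and no sulfate carrier was listed under SULTR. A probe set was named for 75 of them, out of 17905 genes with a probe set in all, and where a gene had several, the brightest by its mean over the 4 arrays was used.

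Coleoptiles, the sheaths around the shoots of germinating grass seedlings, were compared on the Affymetrix Rice Genome GeneChip, with 2 arrays from anoxic and 2 from aerobic seedlings of Oryza sativa cv Nipponbare. All seeds were surface-sterilised with bleach and kept on filter paper for 4 days in darkness at 28 °C; anoxic seeds stood in a chamber filled with N2 and H2 at 90:10, aerobic seeds in air. Leaves were cut out of the aerobic coleoptiles, whereas anoxic ones had formed none, so cutting and oxygen cannot be told apart. Whether arrays of a group came from separate cultures is not stated, so that p-values here reflect only the spread between arrays, possibly a technical one. In bulk RNA of this kind, fewer cells of a type and less RNA per cell cannot be told apart.

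Plants take up potassium, phosphate and metal ions against steep gradients, mostly with carriers driven by the proton gradient that plasma membrane pumps build with ATP. HAK proteins carry potassium with protons, AKT1 lets it in through a channel, and PHT1 proteins carry phosphate with protons. Iron, zinc, manganese and copper enter as free ions through ZIP, IRT, NRAMP and COPT proteins or, in grasses, bound to phytosiderophores through YSL proteins. Nicotianamine, the product of NAS enzymes, binds metals for transport inside the plant and is the precursor of those phytosiderophores. CAX and MTP proteins load calcium and other metals into vacuoles or other compartments in exchange for protons.

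Levels are given as log2(intensity + 1) of the deposited values. Genes whose 4 arrays averaged 4 or more were tested with limma, in a fit across all probe sets that bright, and a gene was called where the Benjamini-Hochberg adjusted p was under 0.05 and the absolute log2 change, anoxic minus aerobic, at least 1. The GeneChip also carries 64 reporter probe sets for marker genes of transgenic plants, and the brightest of them had a group mean of 4.05. For a called gene with 1 group at or under that level, a lower bound of the fold is given, the brighter mean against 4.05. Between replicates the correlation over 18826 tested probe sets was 0.968 in anoxic and 0.973 in aerobic coleoptiles, against 0.687 to 0.698 between the groups (Pearson's r, across probe sets). Markers of greening leaf tissue had a summed intensity of 261 to 296 over 7 genes in anoxic and 359 to 374 in aerobic arrays. LHCP, CAB2R, PSB28 and RBCS1 of that list lay under 4.05 on every array, and RBCS read 7.47 and 7.27 in anoxic against 7.42 and 7.21 in aerobic arrays. PSAG was called lower (means of 5.95 in anoxic and 7.35 in aerobic arrays), and PSAH was higher without a call (4.66 and 4.18). Genes taken by symbol as grain storage markers summed to 188 and 194 in anoxic and to 418 and 451 in aerobic arrays over 7 genes, GLB included. The gene listed as GLB (LOC4337720) was called lower (means of 6.78 in anoxic and 8.46 in aerobic arrays). It was matched by that symbol alone, and whether it encodes a storage globulin was not checked. The sum can thus not be read as a measure of storage tissue. GLUA-2 was not called (5.53 and 5.59), and the other storage markers were too dim to be tested. The part of these leaf and storage marker differences in the other results was not tested. No list of coleoptile-defining genes was used.

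Anoxic coleoptiles had less transcript of several of the genes described here, among them CAX1a, NAS3, AKT1, PHT1-8 and HAK1, and more of the zinc carrier gene ZIP7. The bright carrier genes HAK5 and PHT1-1 were not called. Of the 75 genes with a probe set, 40 were under the level filter, and 39 of these had both group means at or below 4.05. The exception was HAK12, with 3.43 and 3.54 in anoxic and 4.05 and 4.47 in aerobic coleoptiles, and its difference of -0.77 was the widest among the 40. The other 35 were tested: 14 fell, 4 rose and 17 were not called. The background was high in this comparison: 51.4% of the tested ion transporter genes were called, 40.0% lower and 11.4% higher, against 34.0% of all 12290 tested genes, 18.0% lower and 16% higher (32.1% of the 18826 probe sets). The median log2 change was -0.82 over the 35 genes and 0.03 over all tested genes. Anoxic and aerobic arrays did not overlap for 30 of the 35, with 22 lower and 8 higher in anoxic coleoptiles; of all tested genes 77.9% did not overlap, 37.2% lower and 40.8% higher. Of those 35 genes, 3 had a group mean under the filter level of 4 (CAX1a, HAK16 and NRAMP5) and so passed the filter through the brighter group. Without any filter, over the 75 genes with a probe set, a difference of at least 1 was seen downwards in 15 (20.0%) and upwards in 4, where 14.6% and 13.1% of all genes differed that much.

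**Figure D1:**
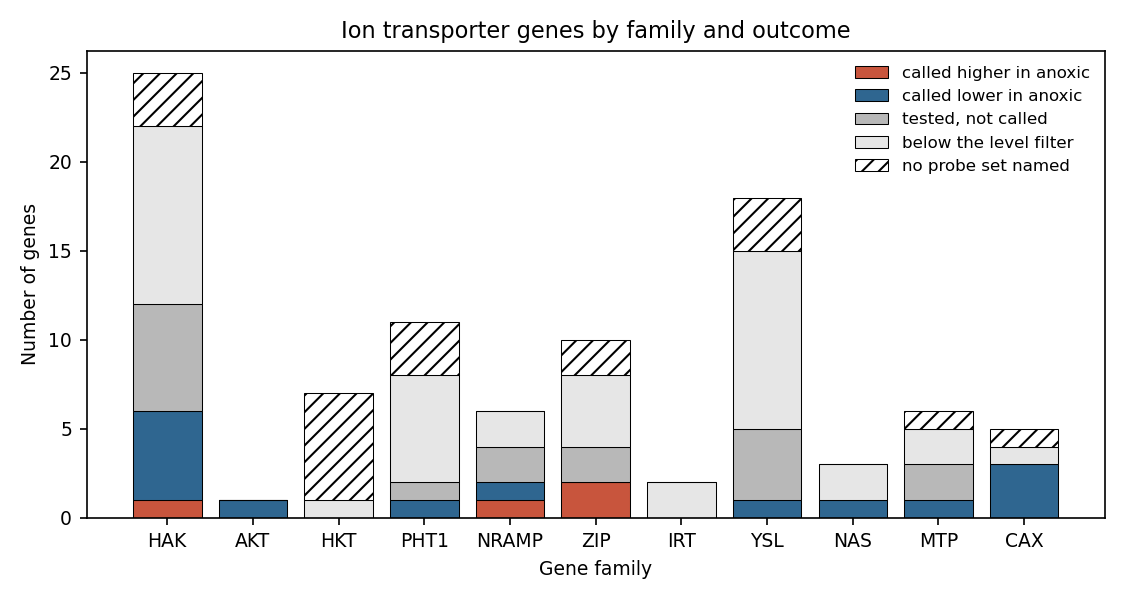
Number of ion transporter genes in each family (x axis) by outcome, stacked from called higher and called lower in anoxic coleoptiles through tested without a call and below the level filter to no probe set named. In PHT1 and YSL more genes lay below the filter than were tested (6 against 2 and 10 against 5), and HKT had no tested gene.

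Potassium genes formed the largest group, with 25 HAK genes and AKT1. Among them 13 were tested, 6 fell and 1 rose, with a median log2 change of -0.97, where 18.0% of all tested genes were called lower and 16% higher. HAK1 (LOC4335729), a high-affinity potassium carrier of rice roots, read 6.86 and 5.96 in anoxic coleoptiles, against 9.50 and 9.89 in aerobic ones. Both anoxic arrays lay far below both aerobic arrays, a log2 change of -3.29 ± 0.37 (SE; adjusted p = 0.00566). A dimmer probe set of HAK1 was also called lower, at -3.41 ± 0.56. The gene's call was lost with either aerobic array left out, though its change stayed at -3.48 without replicate 1 and -3.09 without replicate 2. AKT1 (LOC4326245), the inward potassium channel, read 4.78 and 5.13 in anoxic and 8.49 and 8.78 in aerobic coleoptiles. It had a small spread in both groups and changed by -3.68 ± 0.22 (adjusted p = 0.00174), and its call held with any 1 of the 4 arrays left out. CIPK23 (LOC4342410), a protein kinase known in rice to activate AKT1 together with CBL1, is no transporter but was on a list of partners; it read 7.11 and 6.44 in anoxic and 10.23 and 10.21 in aerobic coleoptiles. Its change was -3.45 ± 0.28 (adjusted p = 0.00285, but 0.0524 without aerobic replicate 1 and 0.0512 without aerobic replicate 2). CBL1 had no probe set named.

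HAK10 (LOC4341573), a carrier placed at the vacuole membrane, was the HAK gene that rose. It read 7.86 and 7.26 in anoxic coleoptiles, against 5.57 and 6.47 in aerobic ones, so that the groups were separated by less than the gap between the aerobic arrays. The change was 1.54 ± 0.40 (adjusted p = 0.0422), and a dimmer probe set gave 1.66 ± 0.36 (adjusted p = 0.0275). Leaving out any 1 array ended the call of HAK10 (adjusted p from 0.0788 without aerobic replicate 2 to 0.177 without anoxic replicate 1). With the replicate number as a block it was also lost (adjusted p = 0.0755).

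The other HAK genes that fell were HAK16, HAK9, HAK23 and HAK18, whose roles are less well described. HAK16 (LOC4333298) read 3.03 and 2.82 in anoxic coleoptiles, under the brightest reporter, and 5.20 and 6.60 in aerobic ones. It was at least 3.60-fold lower (adjusted p = 0.0147), and this bound came to 5.85-fold with aerobic replicate 1 left out and to 2.21-fold with aerobic replicate 2 left out. HAK16 missed the threshold with anoxic replicate 1 (0.0846) or 2 (0.0951) left out, and with values under 5 set to 5 (-0.90, adjusted p = 0.394). HAK9 (LOC4344288) had 5.01 and 4.99 in anoxic and 6.95 and 6.58 in aerobic coleoptiles. HAK23 (LOC4346918) had 6.47 and 6.87 in anoxic and 8.40 and 8.38 in aerobic coleoptiles. HAK18 (LOC4347862) had 7.01 and 6.20 in anoxic and 8.15 and 8.10 in aerobic coleoptiles. In all 4 genes both anoxic arrays lay under both aerobic ones, with changes of -1.76 ± 0.20 for HAK9, -1.72 ± 0.21 for HAK23 and -1.52 ± 0.32 for HAK18 (adjusted p = 0.00588, 0.00677 and 0.0247). Without aerobic replicate 1 the calls of HAK9 (0.0507), HAK23 (0.0707) and HAK18 (0.152) were lost, and without aerobic replicate 2 those of HAK23 (0.0694) and HAK18 (0.147).

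The 6 tested HAK genes without a call included HAK5 (LOC4326945), another high-affinity potassium carrier of roots. It read 11.98 and 11.70 in anoxic and 12.30 and 12.31 in aerobic coleoptiles, a change of -0.47 ± 0.19 (adjusted p = 0.116). A second probe set of HAK5 read only 3.26 to 3.43 over the 4 arrays, below the filter. HAK2 and HAK25 passed the p threshold but not the fold threshold, at -0.83 ± 0.20 and -0.82 ± 0.17 (adjusted p = 0.0345 and 0.0239), and so did HAK15, which was higher in anoxic coleoptiles by 0.76 ± 0.21 (adjusted p = 0.0473). HAK11 and HAK7 differed by -0.97 ± 0.40 and -0.26 ± 0.35 (adjusted p = 0.127 and 0.589). The brightest probe sets of AKT1, HAK1, HAK23, HAK15 and HAK7 are of a type, marked x or s by the manufacturer, that can also bind transcripts of related genes, so that these values may include a relative. Of 7 HKT genes, the one with a probe set, HKT1;5, read under 3 on all arrays.

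**Figure D2:**
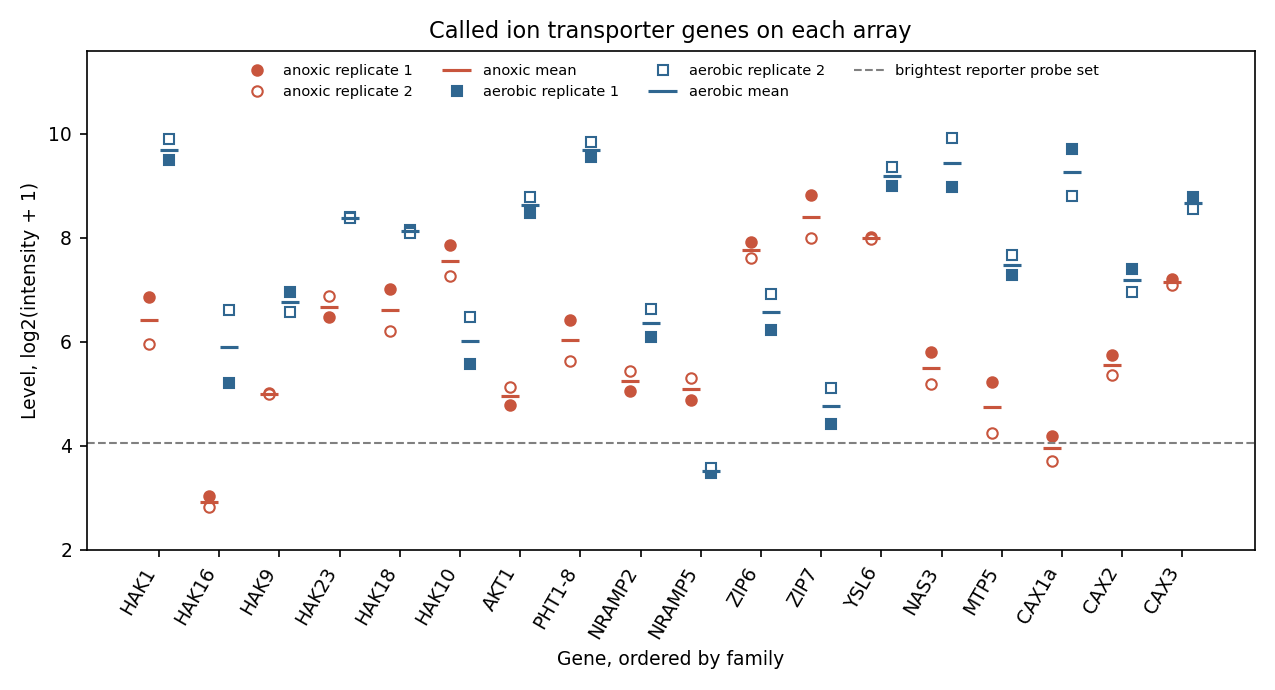
Level of each of the 18 called ion transporter genes (x axis, ordered by family) as log2(intensity + 1), with anoxic arrays left and aerobic arrays right of each tick, short lines at the mean of 2 arrays and a dashed line at the brightest reporter probe set, 4.05. The anoxic and aerobic points of a gene do not overlap, and HAK16 and CAX1a in anoxic and NRAMP5 in aerobic coleoptiles have means under the dashed line.

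Among the phosphate carriers, 8 of 11 had a probe set, and PHT1-8 and PHT1-1 were bright enough to be tested. PHT1-8 (LOC4348741), a high-affinity phosphate carrier, read 6.43 and 5.63 in anoxic coleoptiles, against 9.55 and 9.84 in aerobic ones. It fell by 3.67 ± 0.33 on the log2 scale (adjusted p = 0.00346), with its second tested probe set at -3.38 ± 0.42. The call was lost without aerobic replicate 1 (0.0539) or 2 (0.057). PHT1-1 (LOC4331635), a carrier active at ample phosphate, read 9.38 and 7.76 in anoxic and 8.99 and 9.19 in aerobic coleoptiles. Its anoxic arrays lay on both sides of the aerobic pair and differed from each other by more than the groups did (-0.52 ± 0.58, adjusted p = 0.511). A dimmer probe set of PHT1-1 read 2.27 on all arrays. PHT1-3, next to PHT1-8 on the chromosome, and the other 5 measured PHT1 genes stayed under 4.05 in both groups. The same was true of LOC4331637, listed in the table as PTH1-2 and hence not matched by name, which read 2.86 to 2.87 on all arrays.

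From a list of PHR transcription factors, SPX proteins that restrain them, PHO1 exporters and further phosphate carriers, 6 of 11 measured genes were tested by limma. Of the 6, 1 rose and 0 fell, also at an unadjusted p under 0.05 with the same fold threshold, where 16% of all tested genes were called higher and 18.0% lower. The called gene was SPX2 (LOC4328654), with 6.31 and 6.02 in anoxic and 3.73 and 4.44 in aerobic coleoptiles, a change of 2.08 ± 0.31 (adjusted p = 0.0103). Its call was lost without anoxic replicate 1 (0.0688), anoxic replicate 2 (0.0579) or aerobic replicate 1 (0.0613). PHR2, the central factor of the phosphate response in rice, differed by 0.12 ± 0.28 (adjusted p = 0.765), and SPX1, a gene used as a sign of phosphate shortage, by 0.60 ± 0.18 (adjusted p = 0.0572).

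Carriers of free metal ions went both ways: of 8 tested NRAMP and ZIP genes 3 rose and 1 fell, with a median of 0.70. The shares over all tested genes were 16% higher and 18.0% lower. ZIP7 (LOC4338051), a zinc carrier, read 8.82 and 7.99 in anoxic coleoptiles, against 4.42 and 5.11 in aerobic ones. It had the largest rise of the 35 genes, 3.64 ± 0.40 (adjusted p = 0.00534), a call lost without aerobic replicate 1 (0.0638) or 2 (0.0527). ZIP6 (LOC4337908) read 7.91 and 7.62 in anoxic and 6.23 and 6.92 in aerobic coleoptiles, a rise of 1.19 ± 0.30 (adjusted p = 0.0399). Each of the 4 arrays, when left out, ended the ZIP6 call (adjusted p from 0.066 without aerobic replicate 2 to 0.166 without anoxic replicate 1) and with the replicate number as a block (0.0728). The zinc carrier genes ZIP4 and ZIP8 differed by 0.78 ± 0.34 and 0.29 ± 0.49 (adjusted p = 0.145 and 0.67), and the difference of ZIP8 was -0.39 without anoxic replicate 1.

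NRAMP5 (LOC4342859), the manganese uptake carrier of rice roots, which also lets cadmium in, read 4.88 and 5.31 in anoxic and 3.46 and 3.58 in aerobic coleoptiles. It was at least 2.06-fold higher (adjusted p = 0.00917), a bound because its aerobic level lay under the brightest reporter. NRAMP5 missed the threshold without aerobic replicate 1 (0.0845) or 2 (0.0764), and with values under 5 set to 5 (0.16, adjusted p = 0.487). NRAMP2 (LOC4332012), of the same family, read 5.06 and 5.43 in anoxic and 6.09 and 6.63 in aerobic coleoptiles. It fell by 1.12 ± 0.28 on the log2 scale (adjusted p = 0.0368), with the call lost without any 1 array (from 0.0851 without aerobic replicate 1 to 0.155 without aerobic replicate 2). NRAMP3 and NRAMP6 differed by -0.52 ± 0.20 and 0.62 ± 0.25 (adjusted p = 0.106 and 0.119). Nramp1, which lies close to NRAMP5 with 2 genes between them, read from 3.84 to 4.07 and was below the filter. IRT1 and IRT2, carriers of ferrous iron, lay under 4.05 on all arrays.

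Of the genes of the chelate route 6 were tested, and by limma NAS3 and YSL6 fell and 0 rose. At an unadjusted p under 0.05 with the same fold threshold, 3 fell and 0 rose. By the adjusted p, 18.0% of all tested genes were called lower and 16% higher. NAS3 (LOC4344361) read 5.81 and 5.18 in anoxic coleoptiles, against 8.99 and 9.91 in aerobic ones. The gap between the groups was much wider than that between replicates, and the change was -3.95 ± 0.41 (adjusted p = 0.00483), under 0.05 with each array left out (0.0368 to 0.0494). NAS1 and NAS2, which lie side by side and are known from iron-deficient roots, lay under 4.05 on all arrays. Of 18 YSL genes 5 were tested and YSL6 was called. YSL6 (LOC4335676), known in rice for tolerance of excess manganese, read 8.01 and 7.98 in anoxic and 9.01 and 9.37 in aerobic coleoptiles, a change of -1.19 ± 0.20 (adjusted p = 0.0146). YSL6 missed the threshold whichever array was left out (adjusted p from 0.0579 without aerobic replicate 1 to 0.0761 without aerobic replicate 2).

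YSL13 (LOC4336441) showed a larger but more scattered difference, with 5.62 and 4.13 in anoxic and 6.52 and 7.77 in aerobic coleoptiles. The groups did not overlap, but replicates differed by over 1 log2 unit and the gene was not called (-2.27 ± 0.68, adjusted p = 0.0596). YSL12, which lies next to it on the chromosome, read 10.16 and 8.84 in anoxic and 9.38 and 10.02 in aerobic coleoptiles, with overlapping groups (-0.20 ± 0.52). A dimmer probe set of YSL12 read 2.66 to 2.68. YSL14 and YSL16, the second of which carries copper bound to nicotianamine, differed by -0.24 ± 0.20 and 0.24 ± 0.43. YSL15, the carrier of iron bound to phytosiderophores in rice roots, lay under 4.05 on all arrays.

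Exchangers of vacuoles and other compartments were tested for 6 genes, of which 4 fell and 0 rose by limma, the same numbers as at an unadjusted p under 0.05. Over all tested genes, 18.0% were called lower and 16% higher. CAX1a (LOC4324573), a vacuolar calcium and proton exchanger, read 4.18 and 3.71 in anoxic coleoptiles, against 9.71 and 8.81 in aerobic ones. It was at least 37.0-fold lower (adjusted p = 0.00224), the largest fall among the 35 genes, and its call held with each array left out (adjusted p from 0.0298 to 0.0374). CAX2 (LOC4333044) read 5.74 and 5.35 in anoxic and 7.40 and 6.95 in aerobic coleoptiles, and CAX3 (LOC4337242) read 7.21 and 7.09 in anoxic and 8.78 and 8.56 in aerobic coleoptiles. All 3 tested CAX genes thus had both anoxic arrays below both aerobic ones, with -1.63 ± 0.26 for CAX2 and -1.52 ± 0.18 for CAX3 (adjusted p = 0.0122 and 0.00653). Without aerobic replicate 1 the calls of CAX2 (0.0857) and CAX3 (0.0601) were lost, likewise without aerobic replicate 2 (0.0637 and 0.0521), and that of CAX2 also without anoxic replicate 2 (0.0664).

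Of the MTP genes, MTP5 (LOC4327371) read 5.23 and 4.25 in anoxic and 7.29 and 7.67 in aerobic coleoptiles. It changed by -2.74 ± 0.39 (adjusted p = 0.00958), a call lost without aerobic replicate 1 (0.0829) or 2 (0.0956). MTP1 (LOC4337694), which loads zinc into vacuoles, read 8.51 and 8.60 in anoxic and 8.82 and 8.65 in aerobic coleoptiles (-0.18 ± 0.17, adjusted p = 0.451). MTP3 differed by 0.38 ± 0.18 (adjusted p = 0.17).

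**Figure D3:**
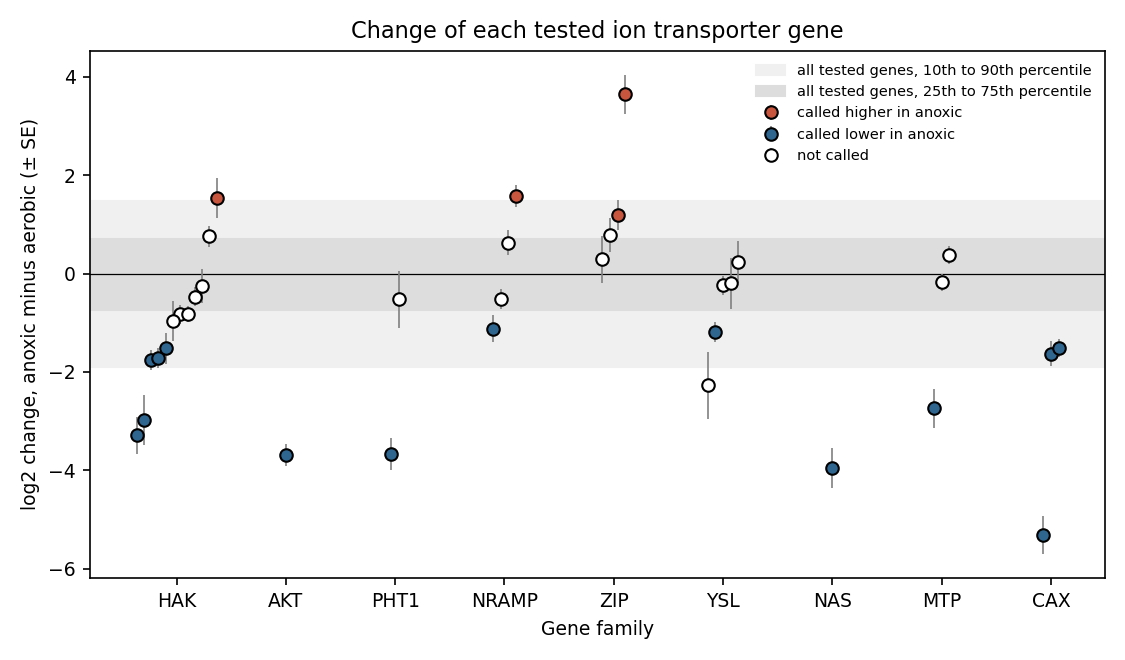
Log2 change, anoxic minus aerobic, with its SE for each of the 35 tested ion transporter genes by family (x axis), filled where called, over grey bands for the middle ranges of all tested genes (25th to 75th percentile, -0.73 to 0.70, and 10th to 90th, -1.91 to 1.47). HAK and NRAMP hold calls in both directions, all 4 ZIP genes lie above 0 with all arrays (ZIP8 does not without anoxic replicate 1), and all 3 CAX genes lie below -1.5.

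Of other genes of metal supply, from a list of copper, iron and zinc carriers and regulators, 12 had a probe set and 9 were tested. Of the 9, 6 rose and 1 fell, with a median of 2.40, where 16% of all tested genes were called higher and 18.0% lower. COPT2, HMA2 and VIT1.1 had aerobic means of 3.20, 3.15 and 3.54, under the filter level of 4, and so passed the filter through the anoxic group. Among the genes below the filter, NAAT1 differed by -0.99, HMA5 by -0.63 and COPT3 by 0.02. COPT1 (LOC4324610), a copper carrier, read 11.09 and 11.35 in anoxic coleoptiles, against 6.71 and 6.17 in aerobic ones, a change of 4.78 ± 0.26 (adjusted p = 0.00143). COPT2 (LOC4338846), of the same family, read 7.10 and 7.91 in anoxic and 3.30 and 3.10 in aerobic coleoptiles, at least 11.0-fold higher. Both calls held with each array left out. The other rises, named after their values were seen, were those of HMA2, a zinc-exporting pump (LOC4341965, at least 6.03-fold), VIT1.1, an iron and zinc carrier of the vacuole (LOC4336075, at least 6.23-fold), IDEF1, a transcription factor of the iron deficiency response (LOC4344415, 2.40 ± 0.30), and COPT5.1 (LOC4347173, 1.55 ± 0.22). IRO3 (LOC4332972), a transcription factor that restrains the iron deficiency response in rice, fell by 1.37 ± 0.19 on the log2 scale (adjusted p = 0.00886). IDEF1 lost its call without aerobic replicate 1 (0.0788) or 2 (0.0771), COPT5.1 without anoxic replicate 1 (0.0615), anoxic replicate 2 (0.0565) or aerobic replicate 1 (0.0635), and IRO3 without anoxic replicate 2 (0.0529), aerobic replicate 1 (0.0666) or 2 (0.0541).

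Among 10 tested genes of a further list, of potassium channels of the vacuole, magnesium carriers, silicon carriers and the kinase CIPK23, 2 fell and 0 rose by limma, also at an unadjusted p under 0.05 with the same fold threshold, and the median was -0.38. That is near the 18.0% of all tested genes called lower. Beside CIPK23 the fall was that of Lsi6 (LOC4340558), a silicon channel, with 5.91 and 6.16 in anoxic and 7.03 and 8.22 in aerobic coleoptiles (-1.59 ± 0.44, adjusted p = 0.0495). Lsi6 missed the threshold without anoxic replicate 1 (0.2), anoxic replicate 2 (0.16) or aerobic replicate 2 (0.101), and its change was -2.18 without aerobic replicate 1 and -1.0 without aerobic replicate 2. It was also lost with pseudocount 16 (0.0555), with a filter on either group's mean (0.0506) and with values under 5 set to 5 (0.151), and its probe set is of the x type. A planned list of proton pump genes, whose activity drives most of these carriers, matched no gene whose identity the table settled and is not analysed here.

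**Figure D4:**
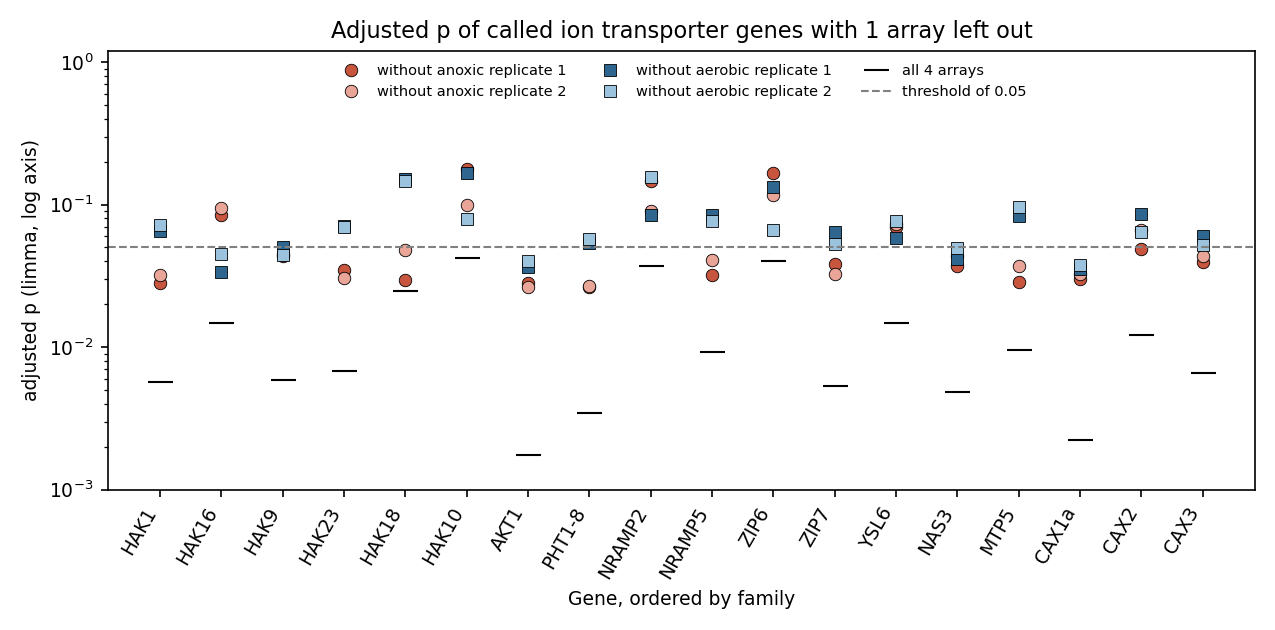
Adjusted p by limma (log axis) of the 18 called ion transporter genes with all 4 arrays (short black lines) and with 1 array left out (circles for an anoxic, squares for an aerobic array left out), with a dashed line at 0.05. AKT1, CAX1a and NAS3 stay under the line throughout, and 15 genes have at least 1 point above it.

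Few of these calls held whichever single array was left out. Calls over all probe sets also became fewer in each of these smaller fits, more so without an aerobic than without an anoxic array. The losses are therefore not read as a trait of these genes. Of the 18, 3 held with each of the 4 arrays left out (AKT1, CAX1a and NAS3), and 4 were lost whichever array was left out (HAK10, NRAMP2, ZIP6 and YSL6). Left-out anoxic arrays cost 5 calls (replicate 1) and 6 calls (replicate 2), left-out aerobic arrays 14 and 13. Directions were the same in each of these fits, in which the lone array of a group was taken to vary like the other group. Without the level filter, adjusted over all 57194 probe sets, AKT1 was the 1 called gene of the 18 (adjusted p = 0.0371). Within the anoxic pair replicate 1 read higher than replicate 2 for 28 of the 35 genes, and within the aerobic pair replicate 1 read higher for 13 of 35. The same share over all tested genes was not counted, so these counts cannot be read as a trait of the ion transporter genes.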

How the data were processed

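The authors deposited a linear, normalized intensity for each probe set on each array, made with GCRMA per the submitters' processing notes (version not given in the sources used here). Values ran from 2.25 to 18694, with array medians from 7.36 to 7.55, and were not scaled further. After 123 Affymetrix and 64 reporter control probe sets were left out, 57194 of 57381 remained. The platform annotation, which can be old, named 1 gene for 22436 probe sets and several for 95. All 17905 genes were found in the RefSeq table of assembly ASM3414082v1, used for names and neighbours only.

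With a pseudocount of 1, log2 values of the deposited intensity were fitted with limma 3.58.1 in R 4.3.3 (lmFit, eBayes, 2-sided, 2 residual and 2.34 prior degrees of freedom), adjusted by Benjamini-Hochberg over 18826 probe sets that averaged 4 or more. Log2(value + 1) understates changes of dim genes. For arrays no depth applies, and their number limits precision. The fit was tested on simulated data. An exact permutation test of 1 gene cannot pass 0.05 with these 4 arrays, and limma's p-values depend on a spread shared across probe sets.

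The genes and lists were chosen with earlier results of these data known. Every called gene and HAK1, HAK10, PHT1-8 and NAS3 were named with their arrays; from each other list, the called genes that rose most and fell most, up to 2 each way. Same-numbered arrays deviated from their group means with r = -0.14, and crossed ones necessarily with the same value of opposite sign, 0.14. This cannot show whether a number marks a shared batch, and the labels do not say so. Alternatives covered the pseudocount, filter, scaling, floor, prior, replicate block and left-out arrays.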

Additional observations from a re-analysis of the deposited data

How the results depend on the processing

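No called gene named in the text changed direction under any alternative run. Of the 17 tested ion transporter genes without a call, 5 turned with 1 array left out: PHT1-1 (0.29 without anoxic replicate 2), YSL12 (0.46 without anoxic and 0.12 without aerobic replicate 2), YSL16 (-0.14 without anoxic and -0.22 without aerobic replicate 1), ZIP8 (-0.39 without anoxic replicate 1) and HAK7 (0.17 without anoxic replicate 2). With all 4 arrays 4 ion transporter genes rose and 14 fell (3015 and 3021 probe sets in all). Without a filter on mean level, when 57194 probe sets were adjusted together, 0 rose and 1 fell (AKT1) by limma, against 3 and 14 at an unadjusted p under 0.05 with the same fold, and 738 and 971 probe sets in all were called. With a mean of at least 6, 1934 and 1895 probe sets were called. With values under 5 set to 5, 1 ion transporter gene rose and 11 fell (1600 and 1748 probe sets), HAK16 changed by -0.90, NRAMP5 by 0.16 and CAX1a by -4.26. With 1 array left out, 0 to 2 of these genes rose and 4 to 12 fell, and 692 to 2092 probe sets rose and 1186 to 2262 fell. Those fits have fewer arrays and so less power to call a gene in either direction. With the replicate block 2 rose (HAK10 and ZIP6 lost their calls) and 14 fell; the block lost no other call among named genes. With the crossed pairing as a block, chosen after seeing the data, 4 rose and 15 fell. Under pseudocount 16 the calls of NRAMP2 and NRAMP5 were lost on fold size (-0.88 and 0.90), and that of Lsi6 at -1.41 (adjusted p = 0.0555). Of 383 values of called genes under alternatives, 291 kept their call and 92 lost it; the cause was not tested. Signal over background limited the reading of the 40 genes under the filter.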
